A study of Mus musculus with 12 samples.

Results

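RNA levels were compared in KPC cells after 6 h of cisplatin (Cis) and after PBS, with 2 RNA-seq libraries per group. All genes were considered, and those described by name were in part picked by the size of their change. A read was found for 14005 genes in these 4 libraries, and the 10436 genes with a mean of at least 1 RPKM over the RNA-seq libraries of all groups were tested. The 4 libraries belong to a series of 12, which also holds RNA-seq at 21 h and ribosome footprints of all 3 groups. KPC is a mouse pancreatic ductal adenocarcinoma (PDAC) cell line from tumours of mice with Trp53 LSL-R172H and Pdx1-Cre, in which the Cre driver switches on mutant alleles in the pancreatic lineage. Every group carries the alleles of the line. Cis was given at 20 µM, and the control cells, which the labels call untreated, received PBS for a duration that is not labelled. Replicates are numbered in the labels, and nothing states whether they came from separate cultures, so p-values measure only the spread between these libraries.

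Cisplatin is a platinum drug that binds purine bases and ties neighbouring bases, or both strands, together. RNA polymerase II stalls at such adducts until transcription-coupled repair removes them, and replication forks stall at them as well. Blocks to elongation are known to lower long genes and short-lived mRNAs first. DNA damage also activates the ATM and ATR checkpoint kinases, p53 and stress kinases, and these switch on sets of early response genes.

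After the 3 transcripts Lars2, Tmem38b and Mettl26, which took 53.8 to 56.6% of the reads, were removed, the PBS libraries held 1119096 and 1341584 reads and the 6 h libraries 862476 and 1005028. RPKM (reads per transcript length and library size) was recomputed on these totals and scaled between libraries, and all RPKM values below are of this kind. A level is therefore a share of the RNA in a library, and less RNA per cell cannot be told apart from fewer cells making it. Replicates were close across genes, with Pearson's r of log2 values of 0.968 with PBS and 0.957 at 6 h (genes are not independent replicates), and they differed by 1.5 and 1.44 times what sampling of reads alone gives (chi-square divided by its degrees of freedom). The keratin genes Krt8, Krt18 and Krt19 and the epithelial cadherin gene Cdh1 were read in every library, and 9 of the 14 listed epithelial markers could be tested. The epithelial genes Epcam and Cldn4 had at most 1 read in any library, Muc1 had 1 to 4, and Ocln had 0. The summed share of the epithelial markers was 0.633 to 0.663% of reads with PBS and 0.638 to 0.675% at 6 h. Mesenchymal markers took 0.410 to 0.452% with PBS and 0.402 to 0.444% at 6 h. Fibroblast markers had 3 to 8 reads in all per library, endothelial markers 0 to 2, acinar markers 2 to 9, and the leukocyte genes Ptprc, Csf1r, Adgre1, Lyz2 and Cd79a had 0 reads. Leukocyte markers had 64 to 106 reads, nearly all of Cd14, whose log2 fold change was 0.06.

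The change at 6 h was small for most genes. The median log2 fold change of the 10436 genes was -0.01, and 5062 of them (48.5%) were above 0. Of these genes, 0 passed an adjusted p under 0.05 (limma on log2(RPKM + 0.5) with Benjamini-Hochberg adjustment, 0%). The lowest adjusted p was 0.18. At an unadjusted p under 0.05, 559 genes were higher (5.36% of those tested) and 567 lower (5.43%). In 2113 genes (20.2%) both 6 h libraries lay above both PBS libraries, and in 2413 (23.1%) both lay below. Limma's voom, which weighs each value by its read depth and was run on read numbers recovered from RPKM, called 62 genes higher (0.594%) and 194 lower (1.86%) at an adjusted p under 0.05. In what follows, a gene called higher or lower is one called by voom, and none of these genes passed the adjusted threshold of limma on RPKM. Of the called genes, 60 of 62 and 170 of 194 also had an unadjusted p under 0.05 in limma, and the groups did not overlap for any of them. With 2 libraries on each side an exact permutation p (two-sided) is at least 0.333, so the p-values given here rest on the models of spread across genes. The calls depended on the number of libraries. Without 6 h replicate 2, 10 of the 62 and 34 of the 194 genes were called again, and without 6 h replicate 1, 20 and 47. Without PBS replicate 1 the counts were 19 and 107, and without PBS replicate 2, 22 and 83. Of 23 genes with the largest changes, 2 were called whichever library was left out, and 6 in none of the 4 such fits. Of 83 called genes that are named, 18 were called in none of them, with a highest voom adjusted p of 0.149 to 0.644 per gene. These were Arl5b, Btg1, Ccdc120, Ccn2, Cdh2, Cenpn, Cox4i1, Ftl1, Mnat1, Pcna, Polr2a, Scart2, Smc4, Spred2, Srsf6, Trim47, Txnip and Zic5.

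**Figure D1:**
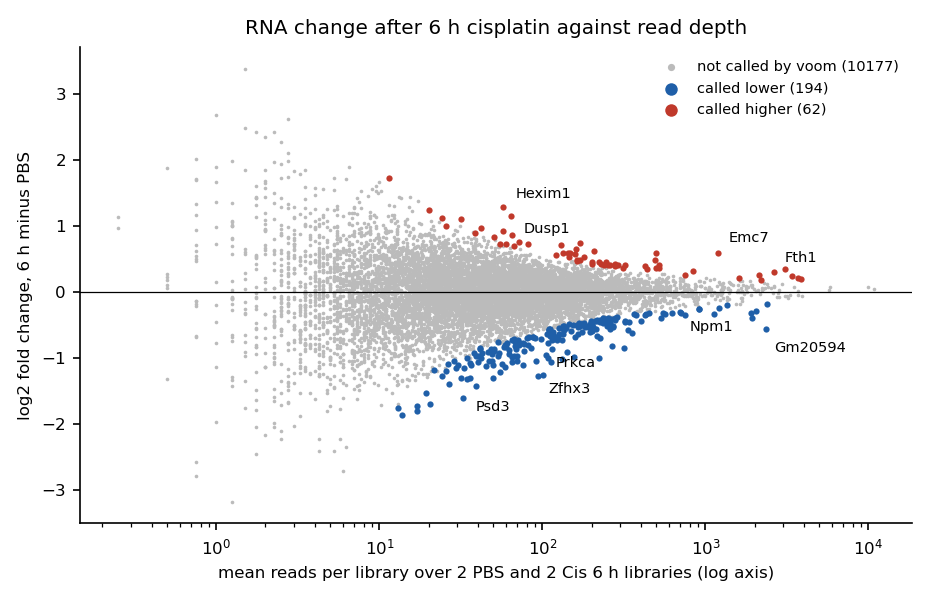
Log2 fold change of each gene (6 h minus PBS, vertical axis) against its mean reads per library over the 4 libraries (log axis), with genes called higher by voom in red, called lower in blue and all others in grey. The 62 genes called higher and 194 called lower lie at the edges of a cloud that narrows with depth, and 3 genes without a read in these libraries are not drawn.

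Depth set how small a change could be seen. Genes with fewer than 20 mean reads, 3014 of those tested, had a median 95% interval of 1.01 on either side of the log2 fold change, and 6 of them were called. Between 100 and 300 reads the interval was 0.35 on either side, and 110 of 1918 genes were called. With 1000 or more reads it was 0.16, and 17 of 126 genes (13.5%) were called, with a median change of 0.25 in size. In the plot of change against depth, the calls among abundant RNAs are therefore small changes and those among rare RNAs large ones.

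The genes called lower and higher are described here, without a test, by their genomic span, the distance on the chromosome from the start to the end of a gene with its introns. The median span was 22.6 kb for all genes tested, 10.9 kb for the genes called higher and 150.01 kb for the genes called lower. Of the 194 genes called lower, 134 (69.1%) spanned more than 100 kb, against 1151 (11.1%) of all genes with a span. Among the 62 called higher, 2 did. Spans were found for 10382 of the genes (99.5%).

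By span, the median log2 fold change was 0.07 for 2592 genes of up to 10 kb and 0.06 for 3607 genes of 10 to 30 kb. The median was -0.07 for 3032 genes of 30 to 100 kb, -0.35 for 997 genes of 100 to 300 kb and -0.65 for 154 genes of over 300 kb. The last value is a fold of 0.638, and 138 of these 154 genes were below 0. Each 6 h library was also set against each PBS library on its own. The 4 medians for genes over 300 kb ran from -0.67 to -0.61, and those for genes of up to 10 kb from 0.05 to 0.09. The differences between replicates did not follow span, as PBS replicate 2 minus replicate 1 had medians between -0.03 and 0.01 over the 5 span classes, and 6 h replicate 2 minus replicate 1 between -0.03 and 0.02. The groups did not overlap, with 6 h lower, for 13.5% of genes of up to 10 kb, 57.6% of those of 100 to 300 kb and 70.8% of those over 300 kb, while 23.1% of all genes did so.

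**Figure D2:**
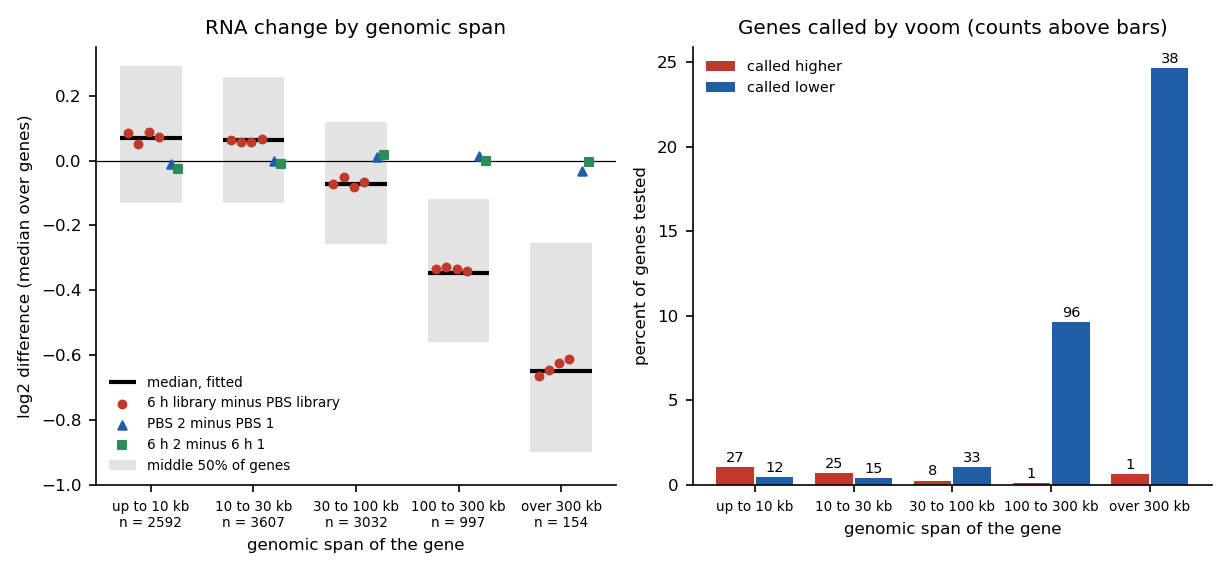
Left, the log2 difference by genomic span, with the median of the fitted 6 h minus PBS change (black line), the middle 50% of genes (grey bar), the medians of the 4 pairs of a 6 h and a PBS library (red) and the medians of the differences between replicates (blue and green). Right, the percentage of genes in each span class called higher or lower by voom, with counts above the bars: the share called lower goes from 0.463% to 24.7%, while the differences between replicates stay near 0.

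The order by span was also seen at higher depth and within classes of mRNA length. Among genes with a mean of at least 50 reads, the medians were 0.07 for spans up to 10 kb and -0.59 for spans over 300 kb, with 22 of the 49 longest genes called lower. Among genes with a span of up to 30 kb, those with the longest mRNAs (over 4396 bases) had a median of 0.08 and those with the shortest (up to 1844 bases) 0.05. Among genes over 100 kb, these classes had medians of -0.38 and -0.25. In the footprint libraries, which were made separately from the lysates, the median change at 6 h was 0.11 for genes of up to 10 kb, -0.42 for 100 to 300 kb and -0.78 for over 300 kb. At 21 h, which was set against the same PBS libraries, the RNA medians in these classes were 0.14, -0.86 and -2.30.

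Among called genes with at least 20 mean reads, the 12 with the largest falls were long genes of many functions. All 12 spanned more than 100 kb, and 11 more than 200 kb. Psd3, which encodes an exchange factor for the small GTPase ARF6, had 10.5 and 8.91 RPKM with PBS and 3.33 and 2.41 at 6 h, from 53 and 54 reads against 13 and 11. Its log2 fold change was -1.61 (SE 0.35, limma adjusted p = 0.267, voom adjusted p = 0.00104, and 0.164 without 6 h replicate 2). Zfhx3, a large homeobox transcription factor gene of 682 kb, had 6.44 and 7.42 RPKM with PBS and 2.18 and 2.98 at 6 h. Prkca, which encodes protein kinase C alpha, had 14.5 and 15.5 RPKM with PBS and 5.56 and 6.43 at 6 h, a log2 fold change of -1.26 (SE 0.37, limma adjusted p = 0.338, voom adjusted p = 1.31e-07, at most 0.00124 with any 1 library left out). In each of these genes the 6 h values were below the PBS values by more than the replicates differed. The genes were picked among those called and without overlap between groups, so this gap adds no support of its own.

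Bcl2, the founding member of the anti-apoptotic family, had 3.90 and 5.76 RPKM with PBS and 1.14 and 1.95 at 6 h, on 31 and 55 reads against 7 and 14. Its log2 fold change was -1.39 (SE 0.47, limma adjusted p = 0.355, voom adjusted p = 0.0101, and 0.251 without 6 h replicate 1). Cmip, a signalling adaptor gene of 204 kb, had 25.2 and 26.9 RPKM with PBS and 10.2 and 10.4 at 6 h, with a log2 fold change of -1.30 (SE 0.21, limma adjusted p = 0.18, voom adjusted p = 9.63e-04, and 0.0861 without 6 h replicate 2). This adjusted p of limma, the lowest over all genes, was shared by 9 genes. Other large falls were in Zfpm2 (-1.43), a GATA cofactor gene, Magi1 (-1.32), which encodes a junction scaffold, Foxn3 (-1.30), a forkhead gene, Ppp3ca (-1.27), the calcineurin catalytic subunit, and Rap1gap2 (-1.22), an activator of Rap GTPase hydrolysis. Of the 12, Cacnb2 had the largest fitted fall (-1.69, SE 0.71) and its 6 h libraries were far apart, with 2 and 16 reads against 32 and 32 with PBS.

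**Figure D3:**
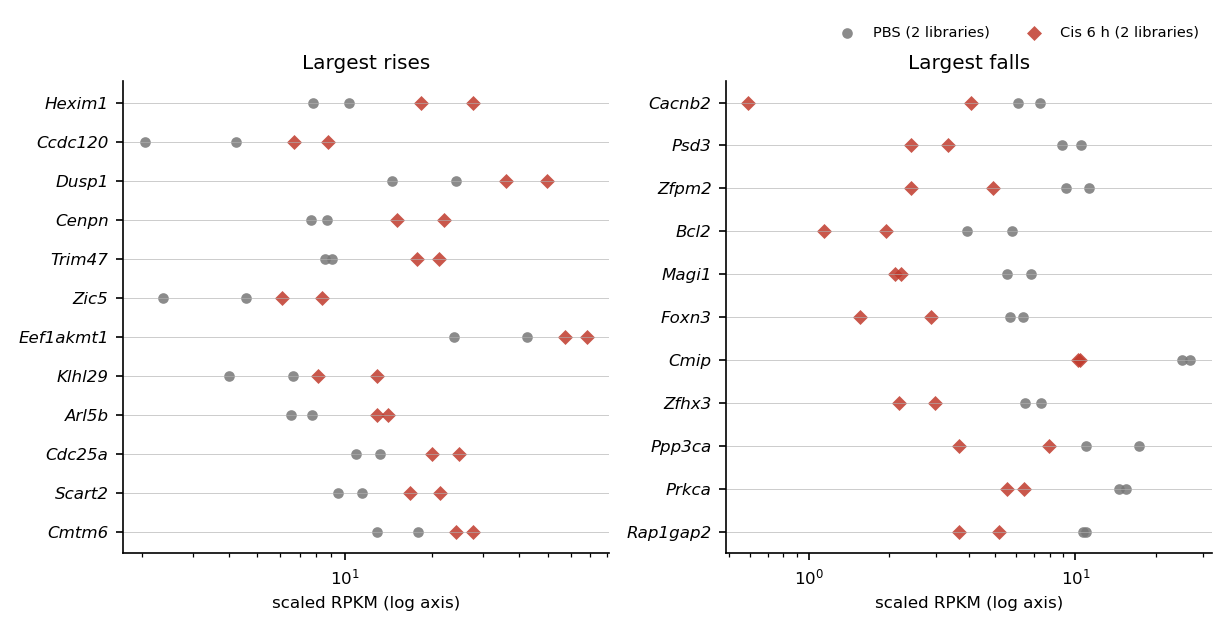
Scaled RPKM (log axis) in each PBS library (grey circles) and each 6 h library (red diamonds) of 23 of the genes with the largest rises and falls among those called by voom with an unadjusted limma p under 0.05 and a mean of at least 20 reads. In all 23 genes the groups do not overlap, which the choice of genes required.

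Large genes at common fragile sites, stretches of the genome that break when replication is slowed, had the longest span of the lists. Of 24 listed genes with a read, 12 could be tested, with a median span of 598 kb. Their median log2 fold change was -0.71, 0 were above 0, and 10 of the 12 (83.3%) did not overlap between groups, all lower, against 23.1% of all genes and 70.8% of the genes over 300 kb, whose median was -0.65. In footprints 11 of the 12 were below 0. Of the 12, 5 were called lower, against 1.86% of all genes and 24.7% of the genes over 300 kb, among them Magi1, Pard3, Vps13b and Lpp. Pard3, a cell polarity gene, had 14.5 and 14.6 RPKM with PBS and 7.03 and 6.54 at 6 h (-1.05, SE 0.31, voom adjusted p = 7.57e-04, and 0.099 without 6 h replicate 2). Lpp, a focal adhesion gene, had 16.2 and 14.9 RPKM with PBS and 11.7 and 10.6 at 6 h, a smaller change of -0.46 (SE 0.29). Of the 154 genes over 300 kb, 38 were called lower and 1 higher. The 2 with the highest fitted changes, Pcca (0.71, SE 0.54) and Vwa8 (0.53, SE 0.50), had 4 to 31 reads per library and were not called.

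Of the genes called lower, 16 were called whichever single library was left out. Among them were Gm20594, Tns3, Npm1, Zfhx3, Samd9l, Prkca, Magi3, Ext1, Zmiz1, Hmga2, Hnrnpa3, Fndc3b, Agap1, Pkp4 and Sltm, which were chosen after their values were seen. Tns3, which encodes the focal adhesion protein tensin 3, had 48.1 and 48.0 RPKM with PBS and 28.2 and 24.9 at 6 h. Hmga2, a chromatin architecture gene, had 106 and 98.6 RPKM with PBS and 61.9 and 70.6 at 6 h. Both genes span more than 100 kb, while 4 of the 16 were shorter than 30 kb.

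The short genes among them included Npm1, which encodes the nucleolar chaperone nucleophosmin, with 1189 and 1273 RPKM with PBS and 933 and 936 at 6 h. Its log2 fold change was -0.40 (SE 0.06, limma adjusted p = 0.18, voom adjusted p = 1.37e-10, at most 2.20e-04 with any 1 library left out). Ncl, the gene of the nucleolar protein nucleolin, was called as well, with 234 and 239.9 RPKM with PBS and 179 and 199.9 at 6 h (-0.32, SE 0.10). Hnrnpa3, an RNA-binding protein gene, went from 1209 and 1280.5 RPKM to 1019.9 and 1008, and Samd9l, an interferon-inducible gene, from 63.6 and 52.1 to 28.9 and 36.6. Gm20594, a predicted gene of 0.334 kb, had 5993 and 5352 RPKM with PBS and 3549 and 4140.4 at 6 h (-0.56, SE 0.11), while its footprints were at 0.65 on the same scale. Abundant genes such as Npm1, Hnrnpa3 and Rplp0 have near-identical processed copies in the genome, so their read numbers are uncertain to that extent.

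Replication-dependent histone genes are short genes without introns, whose mRNAs end in a stem-loop and are made in S phase. Of 59 listed genes with a read 57 were tested, 8 were above 0, the median log2 fold change was -0.44, and in 28 (49.1%) both 6 h libraries lay below both PBS libraries, with 0 in the other direction, against 23.1% lower and 20.2% higher over all genes. Summed over the 57 genes, histone RNA was 5019.5 and 4201 RPKM with PBS and 3732 and 3314 at 6 h. The groups did not overlap, but the PBS libraries themselves differed by more than the gap between the lower PBS and the higher 6 h library. The 7 genes called lower, where 1.86% of all genes were, were H1f1, H1f3, H1f4 and H1f5 of the linker histone H1, H2bc14, H4c11 and H4c14.

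H1f5 had 247 and 242 RPKM with PBS and 165 and 149 at 6 h, a log2 fold change of -0.64 (SE 0.09, limma adjusted p = 0.18, voom adjusted p = 0.00237, and 0.193 without 6 h replicate 2). H2bc14 had 135 and 158 RPKM with PBS and 80.3 and 91.7 at 6 h (-0.76, SE 0.12). H4c11 had 98.3 and 53.5 RPKM with PBS and 39.2 and 31.0 at 6 h, so that its PBS replicates were far apart. The most abundant member, H2bc18, had 949 and 761 RPKM with PBS and 776 and 664 at 6 h, and its groups overlapped (-0.24, SE 0.11). By class the medians were -0.52 for H1 (5 genes), -0.35 for H2A (15), -0.51 for H2B (15), -0.49 for H3 (10) and -0.36 for H4 (12). In footprints, 50 of the 55 histone genes measured were below 0, with a median of -0.61. Histone genes have near-identical copies, and how reads were shared between them is not given in the sources used here. At 21 h against the same PBS libraries the median of the 57 genes was 0.45.

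Among genes called higher with at least 20 mean reads, the largest change was in Hexim1, which encodes an inhibitor of the elongation kinase P-TEFb. Hexim1 had 7.77 and 10.3 RPKM with PBS and 18.4 and 27.8 at 6 h, on 30 and 48 reads against 55 and 97. Its log2 fold change was 1.29 (SE 0.23, limma adjusted p = 0.241, voom adjusted p = 1.97e-05, and 0.099 without 6 h replicate 2). Polr2a, the gene of the largest subunit of RNA polymerase II, was called with 18.8 and 19.4 RPKM with PBS and 27 and 26.6 at 6 h (0.48, SE 0.14). Brd2, a bromodomain gene whose protein binds acetylated chromatin, was also called, with 79.4 and 87.3 RPKM with PBS and 108 and 126 at 6 h (0.48, SE 0.11). The list of RNA polymerase II and elongation genes as a whole had a median of 0.08, with Hexim1 and Polr2a as its called members. In it 24 of 40 were above 0 (60%, against 48.5% of all genes and 58.8% of genes of 10 to 30 kb). The list's median span was 24.0 kb.

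Immediate early genes are those that cells switch on within minutes of a stimulus, without new protein. Of 50 tested, 42 (84%) were above 0, against 48.5% of all genes and 60.6% of genes of up to 10 kb. Their median log2 fold change was 0.29 and their median span 5.14 kb. In 23 (46%) the groups did not overlap in the higher direction, against 20.2% of all genes and 26.3% of genes of up to 10 kb. Dusp1, a phosphatase gene that turns off MAP kinases, had 14.6 and 24.2 RPKM with PBS and 35.8 and 49.8 at 6 h. Its log2 fold change was 1.15 (SE 0.23, limma adjusted p = 0.241, voom adjusted p = 1.44e-04, and 0.142 without 6 h replicate 2). Btg1, an antiproliferative gene, was called higher (0.45, SE 0.16), and Ccn2, a matricellular growth factor gene, was called lower, with 17.4 and 16.9 RPKM with PBS and 7.79 and 7.09 at 6 h (-1.15, SE 0.22). Fos, the AP-1 subunit gene, had 3.87 and 2.50 RPKM with PBS and 9.97 and 7.12 at 6 h on 7 to 18 reads per library, and was not called (adjusted p = 0.118 from voom). Egr1 was not called either (0.60, SE 0.22), while Jun (0.28), Ier2 (0.37), Atf3 (0.49), Junb (0.08) and Myc (-0.02) had smaller values. At 21 h the log2 fold change against the same PBS libraries was 3.67 for Dusp1, 3.74 for Fos and 3.11 for Egr1.

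The promoter of Dusp1 is shown because this gene had the largest rise among the called immediate early genes. The sequence is from RefSeq on GRCm38.p6, minus strand of chr17:26508423-26508722, from 250 bases before the start of the gene to 50 after it. Capitals mark the letters TGACGTCA, the full palindrome that CREB and ATF proteins are known to bind, which begins 143 bases before the start.
Dusp1: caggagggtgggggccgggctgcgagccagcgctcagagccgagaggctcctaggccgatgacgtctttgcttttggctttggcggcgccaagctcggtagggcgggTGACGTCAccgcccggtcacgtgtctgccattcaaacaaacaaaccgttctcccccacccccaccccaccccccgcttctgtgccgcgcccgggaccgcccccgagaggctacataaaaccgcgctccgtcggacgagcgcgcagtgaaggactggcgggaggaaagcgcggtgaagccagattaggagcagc
The same letters, read on either strand since they are their own reverse complement, were in a promoter of 310 of the 8425 tested genes with one in the table (3.68%). They were in 3 of 50 genes called higher (6%) and 2 of 153 called lower (1.31%). These counts describe the letters only.

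p53 target genes had a median log2 fold change of 0.26, with 22 of 32 above 0 (68.8%, against 48.5% of all genes). Of genes of 10 to 30 kb, where the list's median span of 16.9 kb lies, 58.8% were above 0. Of these targets 0 were called, while 0.594% of all genes were called higher and 1.86% lower. Mdm2, which encodes the ubiquitin ligase of p53, had 17.2 and 19.7 RPKM with PBS and 23.4 and 24.2 at 6 h (0.36, SE 0.16). Cdkn1a, the gene of the cell cycle inhibitor p21, had 20.5 and 20.3 RPKM with PBS and 25.8 and 18.3 at 6 h, so that the groups overlapped. KPC cells carry a mutant Trp53 allele, and Trp53 RNA itself was at 75.2 and 71.0 RPKM with PBS and 83.8 and 74.0 at 6 h. None of these differences passed either test.

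Genes of DNA replication and nucleotide synthesis had a median of 0.18, with 40 of 48 (83.3%) above 0, against 48.5% of all genes. In 25 (52.1%) the groups did not overlap in the higher direction, against 20.2% of all genes. The ubiquitin-proteasome list had a similar share, with 23 of 45 (51.1%) not overlapping in that direction. Pcna, the sliding clamp of DNA polymerases, was called higher, with 274 and 269 RPKM with PBS and 355 and 345 at 6 h (0.36, SE 0.08, voom adjusted p = 0.00638, and 0.149 without 6 h replicate 1). Cdc25a, a phosphatase gene that activates the S phase kinase CDK2, had 11 and 13.3 RPKM with PBS and 19.9 and 24.8 at 6 h (0.86, SE 0.19). Pola1, the catalytic subunit of DNA polymerase alpha and a gene of 328 kb, was called lower, with 8.47 and 12.2 RPKM with PBS and 4.15 and 4.68 at 6 h (-1.12, SE 0.31). Rrm2 (0.20) and Mcm7 (0.07) were not called. Mitosis and spindle genes had a median of -0.12, with 16 of 50 above 0 and 19 (38%) not overlapping in the lower direction, against 23.1% of all genes. The condensin gene Smc4 was called lower, with 41.6 and 43.2 RPKM with PBS and 26.5 and 34.1 at 6 h (-0.49, SE 0.15, voom adjusted p of 0.533 without 6 h replicate 1), and the topoisomerase gene Top2a was not (-0.23, SE 0.09). Mnat1, the assembly factor of the CDK-activating kinase and a gene of 162 kb, was called lower (-1.16, SE 0.24).

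**Figure D4:**
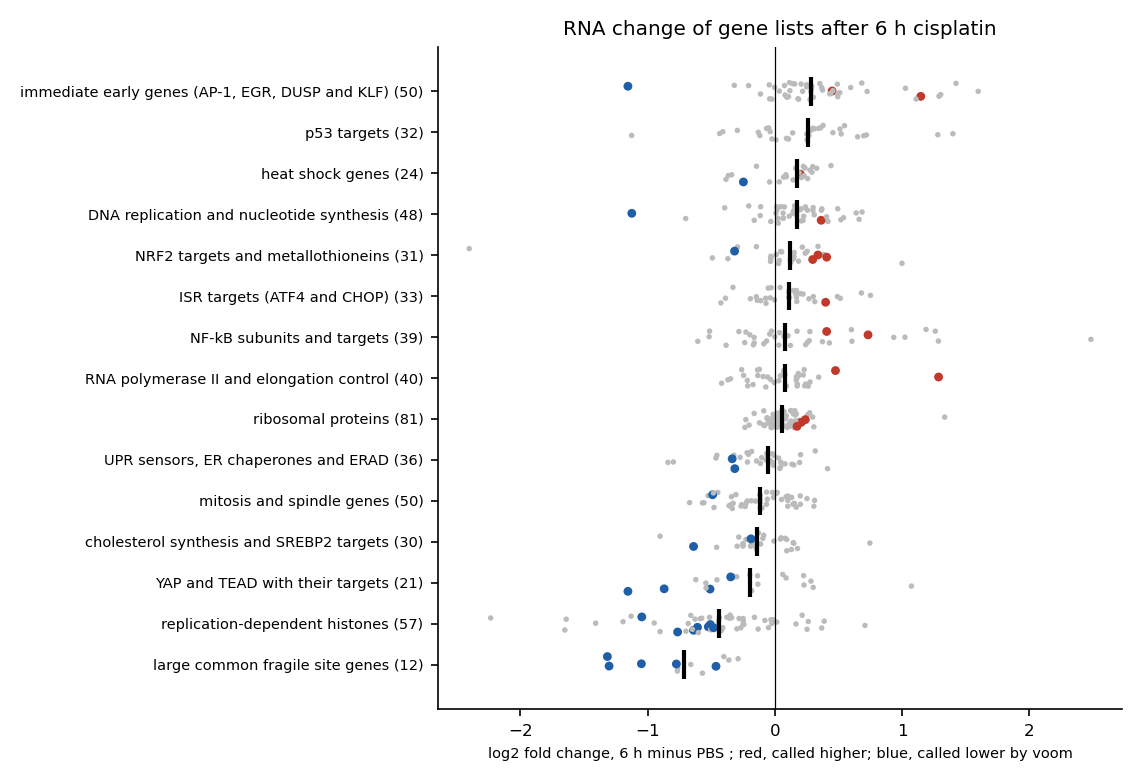
Log2 fold change (6 h minus PBS) of the tested members of 15 gene lists, ordered by their median (black bar), with members called higher by voom in red and called lower in blue, and the number tested in parentheses. Fragile site genes and histones have the lowest medians (-0.71 and -0.44) and immediate early genes the highest (0.29), while ribosomal proteins lie close together near 0.

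In the stress and inflammation lists, 1 of 33 ISR targets, 2 of 39 NF-kB genes and 3 of 31 NRF2 genes were called higher. Over all genes, 0.594% were. Of the same lists, 1 NRF2 gene was called lower, where 1.86% of all genes were. Of the interferon-stimulated genes 0 of 47 were called, and of the cGAS-STING genes 0 of 15. For the counts above 0 given here, the share was 48.5% over all genes tested. By span it was 60.6% for genes of up to 10 kb and 58.8% for those of 10 to 30 kb. ISR targets, which ATF4 and CHOP switch on when the initiation factor eIF2 is phosphorylated, had a median of 0.11, with 20 of 33 above 0. Atf4 itself was called higher, with 149.6 and 155 RPKM with PBS and 184 and 219.8 at 6 h (0.40, SE 0.10, voom adjusted p = 0.0119, and 0.507 without 6 h replicate 2). Among NF-kB subunits and targets (median 0.08, 24 of 39 above 0), Ptgs2, which encodes the prostaglandin synthase COX-2, was called higher, with 26.6 and 27.9 RPKM with PBS and 42.5 and 49.0 at 6 h (0.73, SE 0.12, limma adjusted p = 0.194, voom adjusted p = 3.69e-05, and 0.0584 without 6 h replicate 2). The autophagy receptor gene Sqstm1 was also called (0.41, SE 0.09), and counts among the targets of NF-kB and of NRF2. The iron storage genes Fth1 (1479 and 1528 RPKM with PBS, 1845 and 1852 at 6 h) and Ftl1 (0.34, SE 0.08) were called higher in the NRF2 list, which had a median of 0.12 with 21 of 31 above 0. Me1, the malic enzyme gene of 115 kb in that list, was called lower (-0.32, SE 0.10).

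Heat shock genes had a median of 0.18, with 18 of 24 above 0 (75%). The share was 48.5% over all genes and 58.8% over those of 10 to 30 kb, where the list's median span of 11.5 kb lies. The called members, Hspa8 and Hsp90aa1, went in opposite directions, where 0.594% of all genes were called higher and 1.86% lower. Hspa8, the constitutive HSP70, was called higher, with 1436 and 1402 RPKM with PBS and 1669.8 and 1592 at 6 h (0.20, SE 0.06). Hsp90aa1, the inducible cytosolic HSP90, was called lower, with 363 and 378 RPKM with PBS and 304 and 321 at 6 h (-0.25, SE 0.07). UPR sensors, ER chaperones and ERAD genes had a median of -0.05, with 11 of 36 above 0. Hsp90b1, which encodes the ER chaperone GRP94, had 218 and 228 RPKM with PBS and 165 and 194 at 6 h (-0.31, SE 0.11). Ero1a, the oxidase that recharges disulfide isomerases, had 254 and 267 RPKM with PBS and 189 and 226 at 6 h (-0.33, SE 0.15). Both were called lower, 2 of the 36, against 1.86% of all genes, and 0 of the 36 were called higher.

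Ern1, Xbp1, Hspa5 and Sel1l of the IRE1α pathway and ER stress, and Cgas, Cxcl10 and Ccl5 of the STING pathway, were not called. Ern1, the gene of IRE1α, had 9.0 and 10.5 RPKM with PBS and 6.22 and 7.78 at 6 h, on 69 and 97 reads against 37 and 54, a log2 fold change of -0.46 (SE 0.26, limma adjusted p = 0.558, voom adjusted p = 0.316). Both 6 h libraries lay below both PBS libraries, and the gene spans 90.2 kb. Its substrate Xbp1 had 51.1 and 37.8 RPKM with PBS and 55.5 and 45.7 at 6 h, and the chaperone gene Hspa5 had 181 and 200.1 RPKM with PBS and 176 and 192 at 6 h. In both the groups overlapped. The ERAD adaptor gene Sel1l was at -0.32 (SE 0.25), the DNA sensor gene Cgas at 0.53 (SE 0.25) on 20 to 29 reads per library, and the chemokine genes Cxcl10 and Ccl5 at 0.07 (SE 0.15) and -0.23 (SE 0.12). Gpx4 (0.19) and H2ax (-0.16) were not called. Sting1 had 0 and 3 reads with PBS and 0 and 2 at 6 h, and Il6 had 0 reads in these 4 libraries. A change in either could therefore not be measured here, and why Il6 had 0 reads was not tested.

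Ribosomal protein genes lay close together, with a median of 0.05 and 59 of 81 above 0 (72.8%, against 48.5% of all genes). Their median span was 3.16 kb, and 60.6% of genes of up to 10 kb were above 0. Of such genes with a mean of at least 50 reads, 67.8% were, with a median of 0.07. In footprints, 35 of 78 ribosomal protein genes were above 0, with a median of -0.007. The 3 called members were Rplp0 (0.24, SE 0.06), Rplp1 (0.17, SE 0.06) and Rps2 (0.21, SE 0.05). Rplp0, a protein of the ribosomal stalk, had 2261 and 2084 RPKM with PBS and 2621 and 2508 at 6 h, while its footprints were at -0.10. Cholesterol synthesis with SREBP2 targets had a median of -0.14 with 10 of 30 above 0, and YAP and TEAD with their targets a median of -0.20 with 7 of 21 above 0. In the first, 2 genes were called lower, among them the desaturase gene Scd2 (-0.19, SE 0.08), where 1.86% of all genes were. In the second 4 genes were called lower, against the same 1.86% of all genes. They were Ccn2, Wwtr1 (-0.51), which encodes the YAP paralog TAZ, Myof (-0.35) and Ptpn14 (-0.87), the last 3 with spans over 100 kb. With 1 library left out, the log2 fold change ran from -1.35 to -0.39 for Ptpn14 and from -0.60 to -0.42 for Wwtr1. For Myof it ran from -0.41 to -0.29, and for Ccn2 from -1.22 to -1.09. In the 13 other lists of pathways, the medians lay between -0.10 and 0.16. Of their 450 members, 3 were called higher and 5 lower, while 0.594% and 1.86% of all genes were. Among these lists, glycolytic enzymes had 4 of 21 above 0 (median -0.08) and TGF-beta signalling with its early targets 6 of 21 (median -0.10), with 0 members of either called. Of the mesenchymal markers, the long cadherin gene Cdh2 was called lower (-0.74, SE 0.23), and of the MAPK feedback genes Spred2 (-0.58, SE 0.18).

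Of the genes called higher, 4 were called whichever library was left out, Emc7, Rad21, Ahnak and Fth1, chosen after their values were seen. Emc7, a subunit of the ER membrane protein complex, had 156 and 159 RPKM with PBS and 239 and 237 at 6 h (0.59, SE 0.12, limma adjusted p = 0.241, voom adjusted p = 1.03e-16, at most 8.66e-09 with any 1 library left out). Rad21, a subunit of the cohesin ring, had 688 and 613 RPKM with PBS and 778 and 869.5 at 6 h (0.34, SE 0.10). Ahnak, which encodes a giant scaffold protein, had 20.3 and 21.5 RPKM with PBS and 30.4 and 33.1 at 6 h (0.59, SE 0.16). In footprints, Emc7 was at 0.17, Rad21 at -0.15 and Ahnak at -0.11. The other large rises by rule were in Ccdc120 (1.23), Cenpn (1.12), a centromere gene, Trim47 (1.10), Zic5 (1.0), Eef1akmt1 (0.97), Klhl29 (0.93), Arl5b (0.88), Scart2 (0.83) and Cmtm6 (0.75), which rest on 10 to 82 reads per library.

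Footprints were measured for 58 of the genes called higher in RNA, and 47 of them (81.0%) were above 0, with a median of 0.23 against 0.48 in RNA. Of the 193 called lower with footprints, 184 (95.3%) were below 0, with a median of -0.52 against -0.68 in RNA. Over all 10057 genes measured in both assays, 48.4% of footprint changes were above 0. The footprint libraries were made from lysates of the same label groups, so they repeat the sequencing and not necessarily the cultures. All 12 genes with the largest falls were below 0 in footprints, and 8 of the 9 measured genes with the largest rises were above 0.

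**Figure D5:**
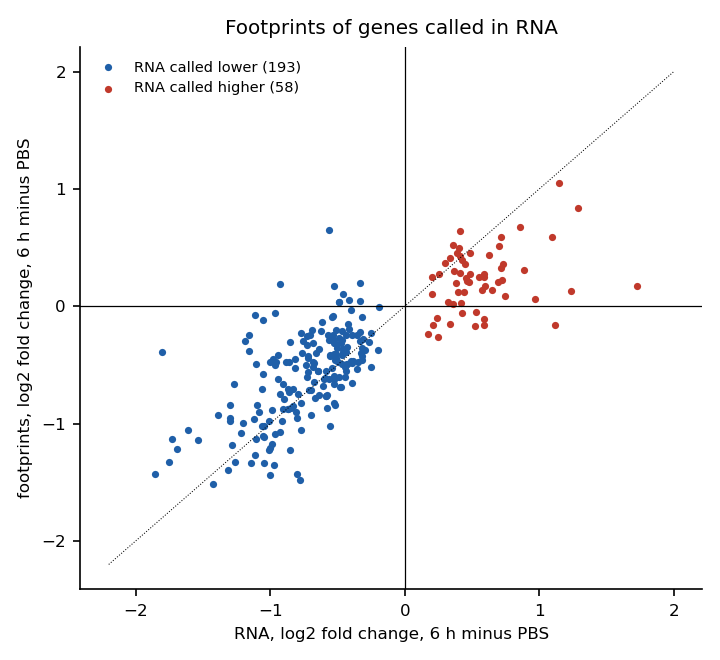
Log2 fold change (6 h minus PBS) in footprints against that in RNA for genes called higher (red, 58) or lower (blue, 193) by voom in RNA and measured in both assays. The dotted line marks equal change: most called genes lie on the same side of 0 in both assays, 47 of 58 and 184 of 193.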

How the data were processed

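The authors deposited 1 table of RPKM per library, with 1 transcript standing for each gene. RNA-seq reads were counted over its full length and footprints over its coding part. The submitters' processing notes name cutadapt, STAR and GRCm39. Multiplied by length, the deposited RPKM values were whole multiples of the value of 1 read (100% of values, within 0.05), which gave read counts. Lars2, Tmem38b and Mettl26 were removed, RPKM was recomputed and libraries were scaled by the median of their ratios to a mean library. Limma 3.58.1 (R 4.3.3) was run on log2(RPKM + 0.5) (eBayes with trend, the 3 RNA-seq groups in 1 model, two-sided, Benjamini-Hochberg adjustment, threshold 0.05). Changes of low genes come out too small on this scale. Genes with a mean RPKM of at least 1 over the 6 RNA-seq libraries were tested. Voom on the recovered reads was the second call rule. Reads carry no molecular identifiers, so intervals cover this spread only.

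Named genes are the 12 largest rises and falls among voom calls with an unadjusted limma p under 0.05, no overlap and at least 20 mean reads, the genes the study names, and called or abundant members (up to 4) of 35 gene lists. A few genes that this rule names are not reported here. The members and lists were chosen with earlier results of these data known. Spans are RefSeq gene lengths on GRCm38.p6, matched by symbol (12 through a synonym) and used as lengths only. Both fits were checked on simulated data. Alternatives were other pseudocounts, filters, scalings and variance models, the 3 transcripts kept, only the 4 libraries, the replicate number as a block and each library left out. Other tools were Python 3.11.15 with numpy 2.4.6, pandas 2.3.3 and, for figures, matplotlib 3.10.9.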

Additional observations from a re-analysis of the deposited data

Results flagged for a closer look

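Among the genes called at 6 h, 5 had the opposite sign at 21 h with an adjusted p under 0.05 both at 21 h and for the difference between the times (limma with Benjamini-Hochberg adjustment). For the difference between 21 h and 6 h, 1424 of 10436 genes (13.6%) passed that threshold. Both times were set against the same PBS libraries. H1f1 was at -0.52 at 6 h and 0.61 at 21 h, a difference of 1.13 (adjusted p = 0.00199 from limma). H2bc14 was at -0.76 and 0.39, a difference of 1.16. H4c14 was at -0.48 and 0.72, a difference of 1.20. Hsp90aa1 was at -0.25 and 0.66, a difference of 0.91. Hspa8 went the other way, from 0.20 to -0.51, a difference of -0.71 (adjusted p = 3.73e-04 from limma).

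The reads removed before scaling differed between the groups. Lars2, Tmem38b and Mettl26 together took 56.6 and 56.5% of the reads in the 6 h libraries and 54.5 and 53.8% in the PBS libraries. In footprint libraries they took at most 0.00537%. Their part in the other results was not tested beyond the fit that keeps them in.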

How the results depend on the processing

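Limma on RPKM called 1 gene, Gm20594, after quantile normalization (adjusted p = 0.00688 from limma), and voom in its place called 256. Over the fits that leave out 1 library each, it called 0 to 1 genes (H2bc12 without 6 h replicate 1), with 413 to 486 higher and 317 to 600 lower at an unadjusted p under 0.05. Over the same fits voom called 17 to 24 genes higher and 35 to 120 lower. The lone library left in a group was then assumed to vary like the others. With the replicate number as a block, limma called 0 genes and voom 66 higher and 190 lower. The deviations of same-numbered PBS and 6 h libraries correlated at -0.02 across genes. Replicates differed by 1.5 and 1.44 times what sampling of reads gives, so this value cannot tell whether replicate numbers pair the libraries. Of 110 named genes, none that voom called changed sign under the alternatives run. Values that were not called crossed 0 when 1 library was left out, with ranges of -0.15 to 0.33 for Cdkn1a, -0.12 to 0.27 for Cxcl10, -0.13 to 0.017 for Hspa5, -0.24 to 0.39 for Junb, -0.16 to 0.11 for Myc and -0.027 to 0.41 for Xbp1. The medians of span classes and lists kept their sign in 300 of 300 alternatives, and 69 moved by more than the replicate spread. With 2 libraries a group and 862476 to 1341584 reads each, changes in genes with few reads were not detectable. Other alternatives changed no count by more than 1.5 times.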

Other observations

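Among the genes called higher in RNA at 6 h, Klhl29, Scart2 and Zic5 had no footprint change to set beside it, since they were too low in footprints to be tested. Klhl29 had 31 and 62 RNA-seq reads with PBS and 78 and 57 at 6 h, and 1 and 1 footprint reads with PBS and 2 and 1 at 6 h.

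Other genes called higher at 6 h are given here with their values at 21 h against the same PBS libraries. Txnip, which encodes an inhibitor of thioredoxin, was at 0.39 at 6 h and 2.68 at 21 h. Tob1 was at 0.70 and 1.08, and the polyamine synthesis gene Odc1 at 0.36 and 0.82. The iron storage gene Fth1 was at 0.30 and 0.27, Ftl1 at 0.34 and -0.13, and the respiratory chain gene Cox4i1 at 0.25 and 0.20. The splicing factor gene Srsf6 (0.38) was also called higher at 6 h, and Hnrnpa1 (-0.20) was called lower.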
